A study of Mus musculus with 20 samples.

Results

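The 9 genes described here drive or restrain the step from G1 into S phase: Cdk6 and Cdk4, the kinases that pair with D cyclins, the cyclins Ccnd1, Ccnd2 and Ccnd3, and the inhibitors Cdkn1a (p21), Cdkn1b (p27), Cdkn2c (p18) and Cdkn2d (p19). They were chosen by name, with earlier results of these data known, from 21887 protein-coding genes of the GRCm38 annotation. All H3K27ac peaks that overlapped a gene's span or the 25 kb on either side of it were taken, so the levels below are descriptions of chosen genes. Acetylation of histone H3 at lysine 27 (H3K27ac) marks active promoters and enhancers and was profiled by ChIP-seq in RAW264.7 cells, an established mouse macrophage line that the cytokine RANKL can turn towards osteoclasts.

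The 10 immunoprecipitated libraries fell into 4 groups of this 1 cell line, although the labels' source field reads bone marrow. They were 3 libraries of untreated cells, 3 of cells given RANKL at 50 ng/ml for 4 h, 3 of cells given RANKL at 50 ng/ml and I-BET at 500 nM for 4 h (RANKL+I-BET), and 1 of cells given I-BET at 500 nM alone for 4 h, numbered 3. I-BET blocks the bromodomains with which BET proteins bind acetylated histones. The study's title concerns Brd2/4, which are BET proteins, and Myc in early osteoclast development. Each library has 1 list of broad peaks and no read counts, so depth is unknown, and 10 input libraries were not analysed here. The labels name no separate cultures, so any spread between libraries of a group may be technical.

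D cyclins bind and activate Cdk4 and Cdk6, which phosphorylate the retinoblastoma protein and so release E2F factors that switch on S-phase genes. The INK4 inhibitors Cdkn2c and Cdkn2d bind the 2 kinases directly, whereas the CIP/KIP inhibitors Cdkn1a and Cdkn1b bind cyclin-kinase complexes and mainly stop Cdk2. In the osteoclast lineage, precursors divide before they leave the cycle and fuse.

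The lists differed in length before any gene was compared. Those numbered 1 and 3 held 13368 to 17794 peaks and covered 16.1 to 25.9 Mb. The replicate 2 lists stood apart, covering 7.79 Mb in untreated, 184.6 Mb in RANKL and 3.44 Mb in RANKL+I-BET. At gene ends, 5 to 8 of 8 macrophage markers had a peak in each list. Of 5 lymphocyte, 5 fibroblast or osteoblast and 5 other-tissue markers, RANKL replicate 2 held 5, 3 and 4, while every other list held 0 or 1 (Cd79a), 0 and 0. Comparisons below therefore rest on the 6 untreated, RANKL and RANKL+I-BET libraries numbered 1 and 3, with the replicate 2 lists and the I-BET list given beside them.

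Promoter sequences were available for 7 of the 9 genes, in 10 windows, from RefSeq (GRCm38.p6). The 250 bases before the start site are shown 5′ to 3′ on the strand of the gene for 4 of these windows. Those of Cdk6 and Cdk4 are shown because they hold the E-box, the site of MYC-family factors, within these 250 bases. Those of Cdkn1a and Ccnd3 are shown because peak coverage there differed between lists or was absent. Capitals mark the E-box CACGTG and the SP/KLF letters GGGCGG, read on both strands, and neither overlaps the other here.
Cdk6, chr5:3343643-3343892, + strand: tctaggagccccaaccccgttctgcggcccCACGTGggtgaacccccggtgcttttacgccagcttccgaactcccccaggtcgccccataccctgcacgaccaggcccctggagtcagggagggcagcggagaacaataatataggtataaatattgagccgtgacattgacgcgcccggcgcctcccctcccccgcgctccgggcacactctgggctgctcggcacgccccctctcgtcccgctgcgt
Cdk4, chr10:127063285-127063534, + strand: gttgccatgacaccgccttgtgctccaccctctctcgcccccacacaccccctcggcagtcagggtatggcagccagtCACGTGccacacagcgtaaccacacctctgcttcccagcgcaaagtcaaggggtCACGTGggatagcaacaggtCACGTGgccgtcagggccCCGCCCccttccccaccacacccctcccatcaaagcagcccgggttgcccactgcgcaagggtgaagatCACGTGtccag
Cdkn1a inner promoter, chr17:29093519-29093768, + strand: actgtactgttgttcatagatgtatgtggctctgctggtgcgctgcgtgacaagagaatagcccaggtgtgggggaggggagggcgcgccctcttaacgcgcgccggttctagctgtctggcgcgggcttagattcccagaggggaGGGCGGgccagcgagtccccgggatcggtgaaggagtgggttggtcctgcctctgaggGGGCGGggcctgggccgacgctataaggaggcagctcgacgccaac
Ccnd3 inner promoter, chr17:47593217-47593466, + strand: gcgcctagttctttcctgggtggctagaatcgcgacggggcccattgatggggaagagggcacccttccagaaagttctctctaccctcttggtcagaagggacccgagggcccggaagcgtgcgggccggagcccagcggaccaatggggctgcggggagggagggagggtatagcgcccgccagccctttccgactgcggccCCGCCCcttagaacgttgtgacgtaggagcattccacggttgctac
Cdk4 had 4 E-boxes, which began 172, 118, 98 and 11 bases before its start site. At least 4 E-boxes were found in 8 of 32851 RefSeq promoter windows of 300 bases (0.0244%), and any E-box in 7.15%. The 300-base window of the inner Cdkn2c start, not printed here, also held 1 E-box, which began 34 bases after that start site. Cdk6 had 1 E-box, 220 bases before its start site, and no GGGCGG, whereas both the Cdkn1a and the Ccnd3 inner windows had GGGCGG, letters that 35.7% of all windows held. These matches are letters only and do not show binding.

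Cdk6 had the longest covered length of the 9 genes in each of the 7 lists numbered 1 and 3, in a chain of separate regions along its 190.0 kb span (chr5:3341004-3531008). Its window, 240.0 kb, is also the longest, and as a share of the window Cdk6, at 6.66 and 9.98% in untreated 1 and 3 and 10.4 and 14.2% in RANKL 1 and 3, lay below Cdkn1a, at 12.1 and 12.4% and 18.3 and 18.1%. In the replicate 2 lists Ccnd3 was longer than Cdk6 with RANKL and Ccnd1 with RANKL+I-BET. The length under peaks in its window was 16.0, 5.80 and 23.9 kb in untreated replicates 1, 2 and 3. The RANKL replicates had 24.99, 38.9 and 34.2 kb, those with both agents had 18.4, 3.88 and 21.8 kb, and the I-BET library had 23.7 kb. Each RANKL list exceeded every list of the other groups, RANKL 1 only narrowly above untreated 3, and untreated and RANKL+I-BET overlapped. The replicate 2 lists enter this order with 184.6 Mb in RANKL against 7.79 Mb in untreated and 3.44 Mb in RANKL+I-BET. In libraries 1 and 3, RANKL exceeded untreated without overlap at 53% of 12186 genes. RANKL+I-BET lay below RANKL without overlap at 29.7% of them. Over the libraries numbered 1 and 3, the means were 19.96 ± 5.63 kb in untreated, 29.6 ± 6.48 kb in RANKL and 20.1 ± 2.46 kb in RANKL+I-BET (SD, n = 2 each).

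The RANKL lists no longer all stood above the rest when the lists were brought to one length. Untreated 1 was the shortest of the lists numbered 1 and 3 and stayed uncut, with 57.7% of its peaks at a -log10 q under 2. In the others numbered 1 and 3 that share was 15.8 to 25.5%. When the lists numbered 1 and 3 were cut to one covered length of 16.1 Mb, keeping the peaks with the highest -log10 p, Cdk6 kept 16.0 and 23.2 kb in untreated, 17.6 and 33.7 kb in RANKL, 17.5 and 21.2 kb in RANKL+I-BET and 21.7 kb in I-BET. RANKL replicate 1 then lay among the untreated lists, and RANKL replicate 3 alone stood above the rest. Per Mb of its own list, Cdk6 held 1112 ± 164 bp in untreated, 1187 ± 186 bp in RANKL and 931 ± 185 bp in RANKL+I-BET (SD, n = 2 each), and the ranges of all 3 groups overlapped. In bulk chromatin, fewer cells with the mark and less of the mark per cell cannot be told apart. The difference in log2(covered bp + 500) at one length was 0.33 ± 0.33 (SE) for RANKL against untreated, -0.33 ± 0.33 for RANKL+I-BET against RANKL and 0.00 ± 0.33 for RANKL+I-BET against untreated. Without RANKL replicate 3 the first of these was -0.12 and the second 0.12, and without RANKL replicate 1 they were 0.79 and -0.79.

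**Figure D1:**
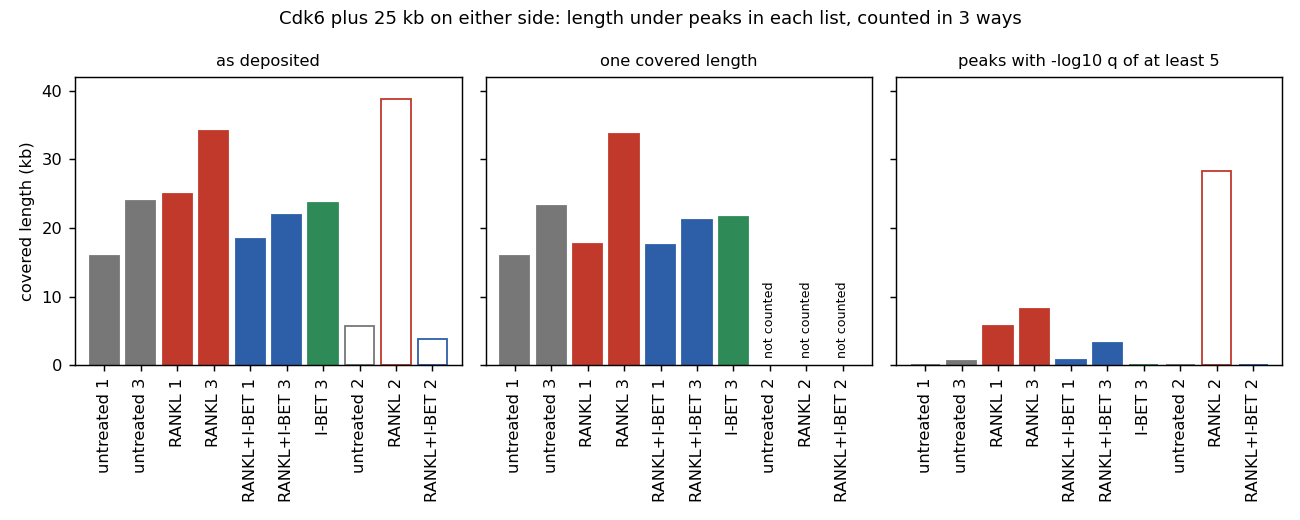
Length under H3K27ac peaks (kb, bars from 0) in the Cdk6 window in each list, as deposited, with the lists numbered 1 and 3 at one covered length, and from peaks with a -log10 q of at least 5. Filled bars are libraries 1 and 3 and open bars library 2. RANKL is highest as deposited and at the q threshold, and at one length RANKL replicate 1, at 17.6 kb, falls below untreated replicate 3, at 23.2 kb.

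Strong peaks at Cdk6 were seen mostly in the RANKL lists. Counting only peaks with a -log10 q of at least 5, by the authors' own q, RANKL lists 1, 2 and 3 covered 5.75, 28.3 and 8.14 kb of the Cdk6 window. Untreated lists 1, 2 and 3 covered 0, 0 and 0.618 kb, RANKL+I-BET lists 0.792, 0 and 3.22 kb, and the I-BET list 0 kb. The RANKL lists did not overlap any other group on this count. The share of all genes whose RANKL lists stood apart in this way was not counted, so the separation cannot be called particular to Cdk6. Strong peaks were also longer in RANKL lists over genes in general, with 86.4% of 6099 genes higher in RANKL than in untreated. These are genes with a mean of at least 500 bp of strong peaks over the 6 lists. RANKL lists alone can bring a gene to that mean. On the log2 scale their median difference was 1.30, against 3.30 at Cdk6. For RANKL+I-BET against RANKL the median was -0.46, against -1.75 at Cdk6. Limma called 0 of these genes in either comparison, and the Cdk6 values describe a gene chosen with earlier results known. The constant added before taking logs keeps differences small at genes with short strong peaks, and the Cdk6 window is the longest of the genes described. The rank of Cdk6 among genes was not counted, so whether its distance from these medians is unusual cannot be told.

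Strong peaks at the other 8 genes were shorter or scattered over the groups. At Cdkn2c they covered 0.204, 1.95 and 1.13 kb in RANKL 1, 2 and 3 and 0 kb in the other 7 lists. At Cdk4 they covered 1.04 kb in untreated 3 and 0.939, 9.94 and 1.28 kb in RANKL, and at Cdkn1a 2.42 and 0.413 kb in untreated 1 and 3 and 2.97 and 20.6 kb in RANKL 1 and 2. Both genes had 0 kb of strong peaks in RANKL+I-BET and I-BET, and Cdkn1a also in RANKL 3. Ccnd1 had 6.10 kb in untreated 3, 14.1 and 7.92 kb in RANKL 2 and 3, 6.03 kb in RANKL+I-BET 1, 7.65 kb in I-BET and 0 kb in the other 5 lists. Cdkn1b had 4.79 and 1.73 kb in RANKL 2 and 3, 0.545 and 4.93 kb in RANKL+I-BET 2 and 3, 3.35 kb in I-BET and 0 kb in the other 5 lists. Cdkn2d had 0.368 and 0.473 kb in untreated 1 and 3 and 6.40 and 1.63 kb in RANKL 2 and 3, Ccnd3 7.72 and 1.30 kb in RANKL 2 and 3, 2.45 and 1.61 kb in RANKL+I-BET 1 and 3 and 0.297 kb in I-BET, with 0 kb elsewhere. In the Ccnd2 window they covered 0.848 kb in untreated 3, 1.25 and 10.9 kb in RANKL 1 and 2 and 1.11 kb in RANKL+I-BET 3, and 0 kb elsewhere.

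Stretches covered by at least 2 of the 10 lists were taken as regions, and a list held a region when it covered at least 1 bp of it. Of 21013 regions, 47 lay in the 9 windows and 18 of these in that of Cdk6, 16 of them inside the gene. No exon annotation was used, so these are called by their distance from the start site alone. Inside Cdk6, lists 1, 2 and 3 held 9, 3 and 10 of 16 regions in untreated, 13, 12 and 13 in RANKL and 10, 4 and 9 in RANKL+I-BET, and the I-BET list held 11.

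Regions held by every list lay at the start of Cdk6 and in its 3′ part. All 10 lists held at least 1 bp of the region over the start site (chr5:3341125-3345372, centred 0.645 kb before it), that at 148.8 kb (chr5:3489240-3496230) and that at 157.8 kb (chr5:3499490-3503824). The start region was covered over 3564, 869 and 4231 bp in untreated lists 1, 2 and 3, over 3839, 3834 and 4093 bp in RANKL, over 4237, 689 and 3923 bp in RANKL+I-BET and over 3806 bp in I-BET. The 300-base promoter window in it was covered whole in 8 lists, over 60 bp in untreated 2 and not at all in RANKL+I-BET 2. The lengths in the libraries numbered 1 and 3 overlapped across the 3 replicated groups. The authors' fold enrichment, the highest of the peaks there, was 3.05, 2.69 and 2.72 in untreated, 3.92, 2.56 and 2.76 in RANKL, 3.31, 4.47 and 2.40 in RANKL+I-BET and 2.51 in I-BET. Each fold belongs to its own list, whose median peak had a fold of 2.62, 2.46 and 2.41 in untreated, 3.11, 1.93 and 2.54 in RANKL, 3.47, 4.56 and 2.50 in RANKL+I-BET and 2.55 in I-BET. The Cdk6 start thus lay above its list's median in the 6 untreated and RANKL lists and below it in the 4 lists with I-BET. Margins in the latter were small, as with 2.51 against 2.55 in I-BET and 2.40 against 2.50 in RANKL+I-BET 3. The share of other regions with this split was not counted. This sets the highest peak of 1 region against the median of all peaks, and lists of unequal length do not make that position comparable. The region at 148.8 kb was covered whole, over 6991 bp, in RANKL replicates 1 and 3, and over 3427 and 5816 bp in untreated 1 and 3, 5035 and 5961 bp in RANKL+I-BET 1 and 3 and 6139 bp in I-BET. Among the 7 lists numbered 1 and 3, all also held the regions at 76.7 kb (chr5:3419379-3421789) and 165.1 kb (chr5:3507735-3510227), the latter being absent from the 3 replicate 2 lists.

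The regions that differed between groups included 3 neighbours in the middle of the gene. That at 89.1 kb (chr5:3432330-3433743) was held by the 3 RANKL lists and by no other: peaks covered 158, 1414 and 1383 bp of it in RANKL 1, 2 and 3. The authors' fold enrichment of those peaks was 2.48, 10.3 and 2.43 and their -log10 q 3.25, 49.6 and 4.78, so replicate 1 touched only the edge of the region and replicate 2 gave the strongest call. Next to it, the region at 90.6 kb (chr5:3433871-3435087) was held by no untreated list, by RANKL over 816, 372 and 1080 bp, by RANKL+I-BET 1 and 3 over 388 and 653 bp and by I-BET over 673 bp. In RANKL replicate 3 a single peak spanned both regions. The region at 86.7 kb (chr5:3429939-3431282) was held by untreated 1 and 3 over 1302 and 688 bp, by RANKL 1, 2 and 3 over 212, 443 and 1310 bp and by I-BET over 800 bp, and by none of the 3 RANKL+I-BET lists. Nearer the 5′ end, the region at 12.1 kb (chr5:3355551-3356343) was held by RANKL 1 and 3 and was absent from every other list, RANKL 2 included. A region that only 2 lists share is covered whole in both by its definition, so its full coverage there carries no further information.

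**Figure D2:**
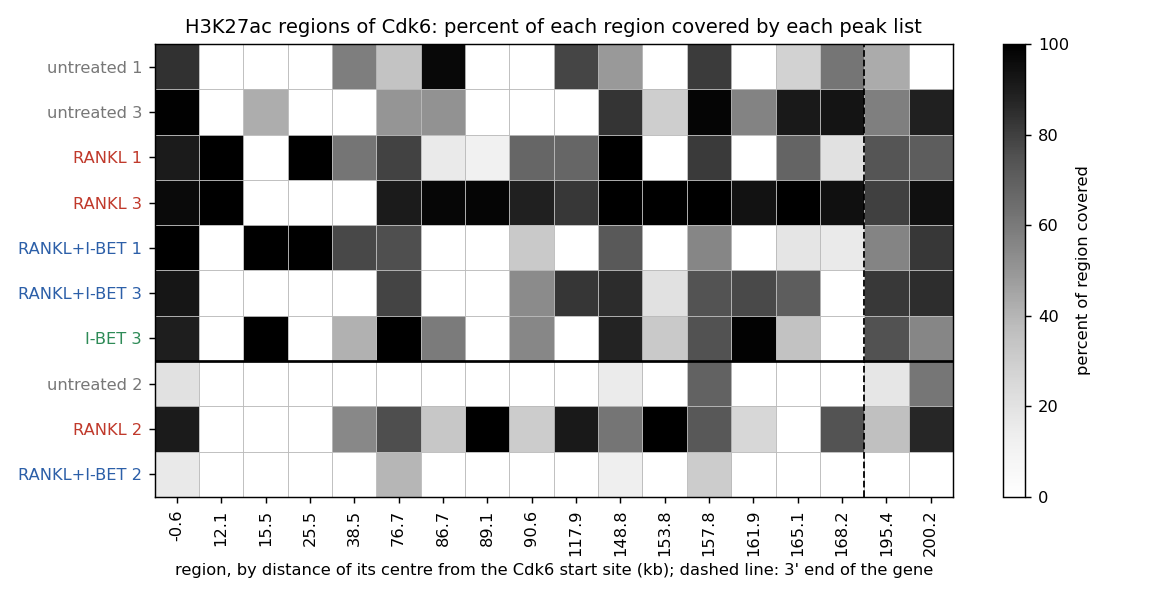
Share of each of the 18 Cdk6 regions (columns, by distance of the centre from the start site in kb) covered by each list (rows, replicate 2 lists below the line), from white at 0 to black at 100%. The column at 12.1 kb is shaded in RANKL 1 and 3 only. That at 89.1 kb is shaded in the 3 RANKL lists only, and faintly in RANKL 1 (158 of 1414 bp). The column at 90.6 kb is empty in the 3 untreated lists, and that at 86.7 kb is empty in the 3 RANKL+I-BET lists.

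The other 7 regions inside Cdk6 showed no such split. Those at 153.8 kb (chr5:3496318-3499072) and 161.9 kb (chr5:3505206-3506303) were held by the same 5 lists, namely all 4 lists numbered 3 and RANKL 2. That at 117.9 kb (chr5:3461502-3462091) was held by the 3 RANKL lists, untreated 1 and RANKL+I-BET 3, and that at 168.2 kb (chr5:3511467-3512738) by untreated 1 and 3, the 3 RANKL lists and RANKL+I-BET 1. Nearer the start, untreated 1, RANKL 1 and 2, RANKL+I-BET 1 and I-BET held the region at 38.5 kb (chr5:3382047-3382791). The region at 25.5 kb (chr5:3369253-3369458) was held by RANKL 1 and RANKL+I-BET 1, and that at 15.5 kb (chr5:3358989-3359860) by untreated 3, RANKL+I-BET 1 and I-BET. Past the 3′ end lay the regions at 195.4 kb (chr5:3538198-3540405), which RANKL+I-BET 2 alone lacked, and at 200.2 kb (chr5:3543677-3544531), within 1 kb of an end of Fam133b.

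Over the 9 genes together, 4 of 47 regions were held by RANKL 1 and 3 and by neither untreated 1 nor 3, against 4.94% of all 21013 regions. They were the Cdk6 regions at 12.1, 89.1 and 90.6 kb and a Ccnd3 region, and 2 of them, at 89.1 and 90.6 kb of Cdk6, met the same rule over all 3 libraries of each group, against 3.42% of all regions. The reverse pattern was met by 0 of 47, against 0.19% of all regions. Held by RANKL 1 and 3 and by neither RANKL+I-BET list were 3 regions, those of Cdk6 at 12.1, 86.7 and 89.1 kb, against 2.41% of all regions, and the reverse pattern was met by 0, against 0.471%. Held by RANKL+I-BET and not by untreated were 2 regions, Cdk6 at 90.6 kb and the Ccnd3 region, against 2.39%, and the reverse held for 1, Cdk6 at 86.7 kb, against 0.447%. Cdk6 holds 18 of the 47 regions, so most of these counts describe 1 gene, and neighbouring regions in it can share a peak. At one covered length the counts of RANKL+I-BET over RANKL and of untreated over RANKL were 4 and 3 in place of 0, against 4.33% and 5.82% of all regions.

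Cdk4, the other D-cyclin kinase, is a short gene (chr10:127063535-127067288) with 6 other coding genes in its window. The length under peaks in that window was 2.24, 3.43 and 3.61 kb in untreated, 4.45, 32.4 and 4.01 kb in RANKL, 4.99, 0.755 and 3.13 kb in RANKL+I-BET and 4.56 kb in I-BET. RANKL 1 and 3 lay just above the untreated lists and inside the range of RANKL+I-BET. All 10 lists held the region over its start site (chr10:127062337-127064791), which contains the 4 E-boxes printed above. The 300-base promoter window itself was uncovered in untreated 3 and RANKL+I-BET 2. Both further regions lay at ends of its neighbours Eef1akmt3 and Mettl1 (chr10:127040995-127043230) and Tspan31 (chr10:127069720-127070985).

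Among the D cyclins, Ccnd1 carried a broad domain in every list and Ccnd2 none of its own. The Ccnd1 domain (chr7:144936576-144943920) reached across 1 end of the gene (chr7:144929931-144939831) and was covered over 5028, 3609 and 6103 bp in untreated, 6290, 7345 and 6641 bp in RANKL, 6026, 4434 and 7345 bp in RANKL+I-BET and 7155 bp in I-BET. RANKL lists were all above the untreated ones here, while RANKL+I-BET 1 and 3 spanned from below to above RANKL 1 and 3. In the whole Ccnd1 window the lengths were 5.81, 4.11 and 7.02 kb in untreated, 7.13, 25.1 and 7.92 kb in RANKL, 7.85, 4.43 and 7.91 kb in RANKL+I-BET and 7.65 kb in I-BET.

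Ccnd2 itself (chr6:127125162-127152188) was covered over 0 kb in every list but RANKL 2, where peaks covered 6.70 kb of it. The only region in its window (chr6:127107766-127109503) lies at an end of Tigar and was held by all 10 lists, so the window's 0.563, 0.644 and 0.848 kb in untreated and 1.25 and 1.75 kb in RANKL 1 and 3 describe that neighbour's end. RANKL+I-BET gave 1.73, 0.836 and 1.11 kb there and I-BET 0.870 kb.

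Ccnd3 (chr17:47505051-47599689) has 2 start sites, and both promoter windows were uncovered in every list but RANKL 2. One region, 0.62 kb after the inner start site whose promoter is printed above (chr17:47593566-47594608), was held over 872, 1043 and 993 bp in RANKL 1, 2 and 3 and over 686 and 808 bp in RANKL+I-BET 1 and 3. Untreated 1 and 3 and I-BET lacked it, while untreated 2 held 372 bp. The regions of its window held by all 10 lists were at ends of Taf8 and of Bysl, Gm20517 and Med20, outside Ccnd3. Its window length was 2.15, 2.26 and 2.33 kb in untreated, 4.24, 43.4 and 3.38 kb in RANKL, 2.69, 0.605 and 3.71 kb in RANKL+I-BET and 1.20 kb in I-BET, the lowest of the lists numbered 1 and 3. At one covered length RANKL 1 and 3 gave 2.13 and 1.30 kb, below or among the 2.15 and 2.00 kb of untreated 1 and 3, and RANKL+I-BET 2.69 and 3.25 kb.

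Cdkn1a, the p53-responsive inhibitor p21, was the only gene of the 9 whose libraries numbered 1 and 3 did not overlap in both steps, up with RANKL and lower with RANKL+I-BET, at one covered length of 16.1 Mb. Of 10946 genes, 20.2% met the first step and 16.9% the second, and the share that met both was not counted. Both steps share the RANKL libraries. Its window (gene at chr17:29090979-29100722) was covered over 7.23, 4.64 and 7.43 kb in untreated, 10.9, 28.7 and 10.8 kb in RANKL, 7.59, 2.06 and 10.5 kb in RANKL+I-BET and 10.3 kb in I-BET. At one length the values were 7.23 and 5.84 kb in untreated 1 and 3, 8.62 and 9.41 kb in RANKL, 5.68 and 3.76 kb in RANKL+I-BET and 8.12 kb in I-BET. The difference of RANKL+I-BET from RANKL was -0.89 ± 0.31 (SE) on the log2(bp + 500) scale, and it did not pass limma's test over all genes (adjusted p = 0.617). With all 9 libraries cut to 3.44 Mb both steps turned, to -2.28 for RANKL against untreated and 0.78 for RANKL+I-BET against RANKL, and with peaks ranked by fold enrichment the second was -0.20. As deposited, RANKL+I-BET 3, at 10.5 kb, lay close to the RANKL lists.

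Its 2 regions were held by all 10 lists, 1 centred 11.5 kb before the first start site (chr17:29075981-29082891) and 1 over both start sites (chr17:29090363-29096376). Within the latter, the inner promoter printed above was covered whole in untreated 1 and 2 and in RANKL 1, 2 and 3. It was uncovered in untreated 3, in RANKL+I-BET 1, 2 and 3 and in I-BET. The outer promoter was covered in all 10 lists.

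At Cdkn1b, Cdkn2c and Cdkn2d every list held part of a region that spans a start site. The 300-base promoter window within it had a peak in all 10 lists at Cdkn1b and at the outer Cdkn2c start, and at Cdkn2d in 7 lists, being uncovered in untreated 1 and 2 and RANKL+I-BET 2. The Cdkn1b window (gene at chr6:134920401-134925525) was covered over 5.22, 5.61 and 8.75 kb in untreated, 9.54, 11.9 and 8.90 kb in RANKL, 9.02, 2.25 and 7.81 kb in RANKL+I-BET and 8.06 kb in I-BET. At one length its order turned, with 5.59 and 1.73 kb in RANKL 1 and 3 against 9.02 and 7.81 kb in RANKL+I-BET, a difference of 1.27 ± 0.53 (SE, log2) that did not pass (limma, adjusted p = 0.725). It was 0.55 without RANKL 3, 2.00 without RANKL 1, 0.38 with peaks ranked by fold and -0.13 in the lists as deposited. Its region 3′ of the gene (chr6:134925890-134930337) was also held by all 10 lists.

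For Cdkn2c (chr4:109660876-109666756) the window lengths were 4.98, 2.51 and 4.33 kb in untreated, 6.87, 6.07 and 9.53 kb in RANKL, 6.77, 1.10 and 4.97 kb in RANKL+I-BET and 5.35 kb in I-BET. The RANKL lists 1 and 3 lay above the other groups as deposited, RANKL 1 only narrowly above RANKL+I-BET 1. A region inside it at 3.40 kb from the start site (chr4:109661264-109662689) was held by untreated 1, RANKL 1 and 3 and RANKL+I-BET 1. Cdkn2d (chr9:21288459-21291421) gave 2.90, 1.66 and 3.90 kb in untreated, 5.12, 22.9 and 3.66 kb in RANKL, 3.86, 0.832 and 3.74 kb in RANKL+I-BET and 3.58 kb in I-BET, and was the only gene of the 9 at which RANKL 1 and 3 overlapped untreated 1 and 3. One of its constant regions (chr9:21286623-21289569) lies at an end of Kri1.

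**Figure D3:**
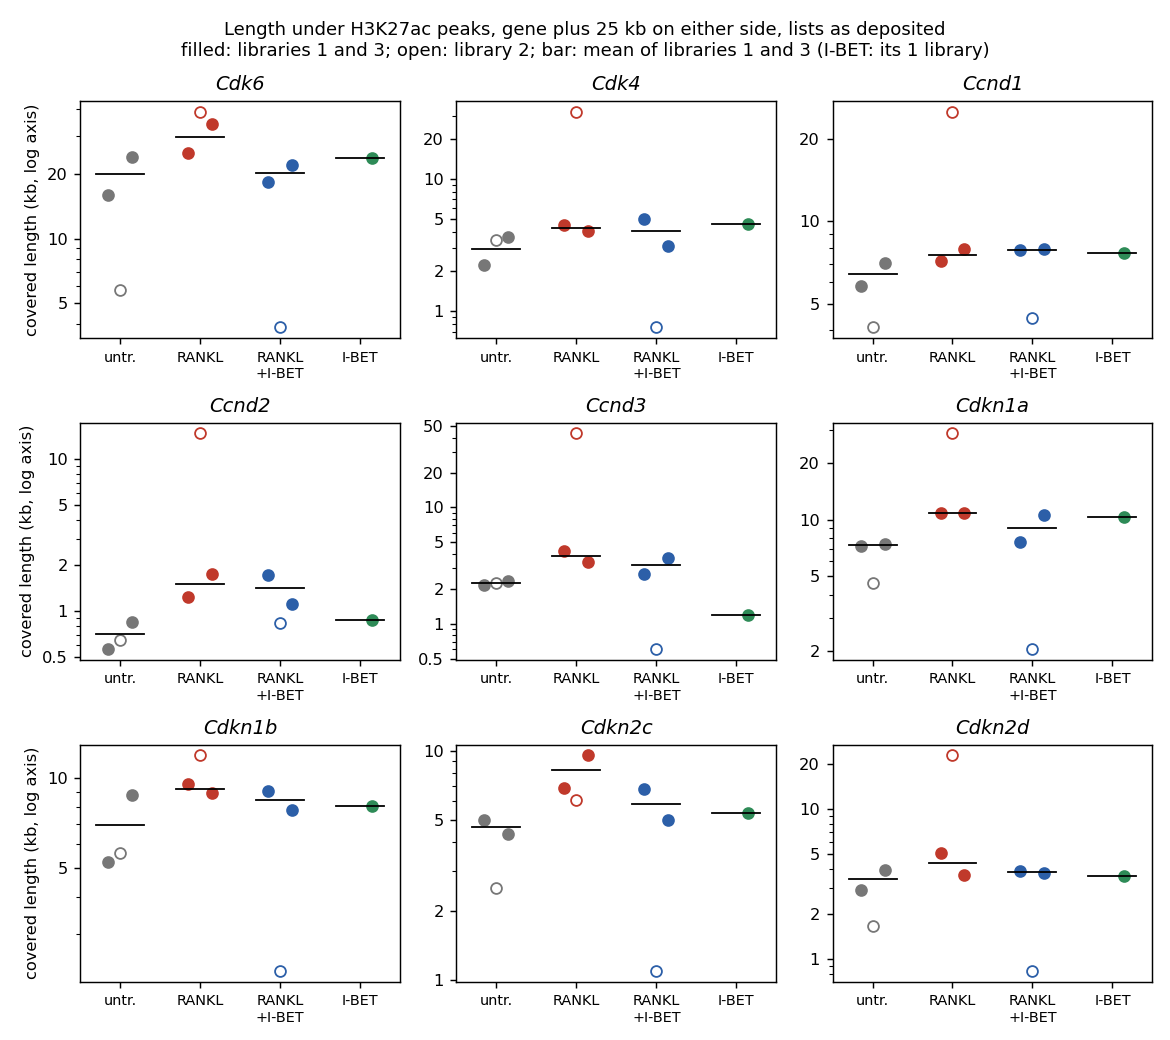
Length under H3K27ac peaks (kb, log axis) in the window of each gene, by group, lists as deposited. Points are libraries, filled for numbers 1 and 3 and open for number 2, and bars are means of libraries 1 and 3. RANKL 2 is highest at every gene but Cdkn2c, and RANKL+I-BET 2 is lowest at every gene but Ccnd1 and Ccnd2.

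As deposited, RANKL 1 and 3 both exceeded untreated 1 and 3 at 8 of 9 genes, all but Cdkn2d, and at 53% of 12186 genes. RANKL+I-BET lay below RANKL without overlap at 3, Cdk6, Cdkn1a and Cdkn2c, and at 29.7% of genes. With the lists at one covered length these counts were 2 (Ccnd1 and Cdkn1a), against 20.2% of 10946 genes, and 1 (Cdkn1a), against 16.9%. RANKL+I-BET lay above RANKL without overlap at 2, Ccnd3 and Cdkn1b, against 15.1%.

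At one covered length none of the 9 genes passed limma's test in any comparison. Over all 10946 genes it called 0 (0%) in RANKL against untreated, 0 (0%) in RANKL+I-BET against RANKL and 0 (0%) in RANKL+I-BET against untreated, with an unadjusted p under 0.05 in 575, 752 and 333 genes. The median difference of the 9 genes was 0.23, with 6 higher, for RANKL against untreated, beside 0.03 over all genes. For RANKL+I-BET against RANKL it was -0.03, with 4 higher, beside 0.00, and for RANKL+I-BET against untreated it was 0.20, with 7 higher, beside 0.03. The first and second comparisons share the RANKL libraries, so opposite signs in them, as at Cdkn1b, are not independent.

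**Figure D4:**
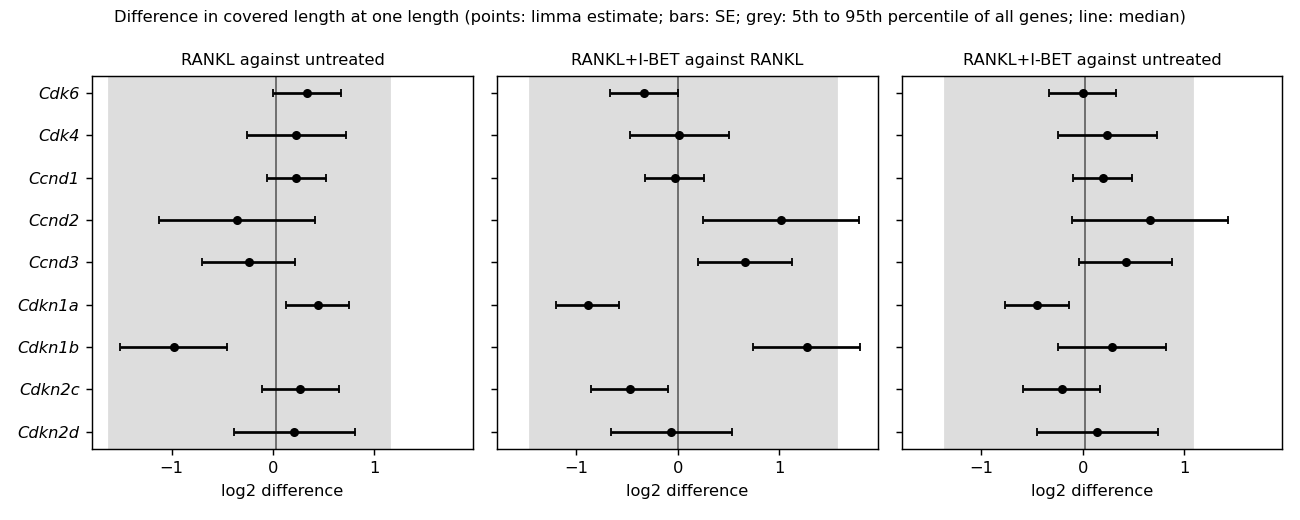
Difference in log2(covered bp + 500) at one covered length for each gene (point, with the SE from limma as bar) in the 3 comparisons, over the 5th to 95th percentile of all 10946 genes (grey) and their median (line). Every point lies inside the grey band; Cdkn1b is farthest from the median in the first and second panels, at -0.98 and 1.27.

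Regions held by every list were found in the windows of all 9 genes. Of all 47 regions, 17 (36.2%) were held by all 10 lists and 21 (44.7%) by all 7 lists numbered 1 and 3, beside 18.8% and 42.6% of all regions. Cdk6 contributed 3 of the 17 with 18 regions, and the other 8 genes 14 with 29. Of the 10 promoter windows, 7, 6 and 6 had a peak in untreated, 8, 10 and 8 in RANKL, 7, 3 and 7 in RANKL+I-BET and 7 in I-BET. Over all 32851 windows the share was 15.0, 12.0 and 23.8% in untreated, 26.4, 55.1 and 28.2% in RANKL, 26.3, 6.44 and 23.6% in RANKL+I-BET and 21.0% in I-BET.

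**Figure D5:**
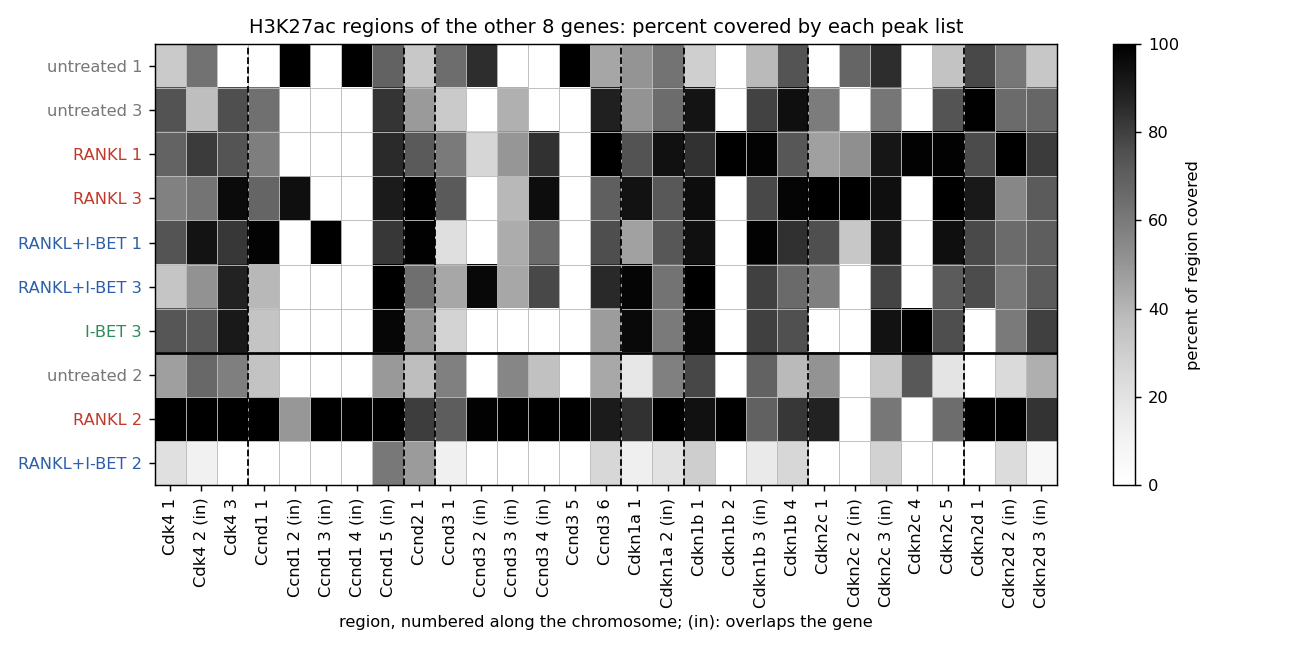
Share of each region of the other 8 genes (columns, numbered along the chromosome within each window, those overlapping the gene marked) covered by each list (rows, replicate 2 lists below the line), from white at 0 to black at 100%. Ccnd3 region 4 is empty in untreated 1 and 3 and in I-BET and filled in RANKL 1 and 3 and RANKL+I-BET 1 and 3.

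Of 30 other genes of the G1/S machinery, all were found, 23 had enough coverage to be tested and 0 passed limma in any comparison. The longest mean coverage over the 7 lists numbered 1 and 3 was at Cks1b, a Cdk-binding subunit, with 10.4 kb, at Rb1, the retinoblastoma gene, with 8.37 kb, and at E2f2, an activating E2F, with 6.30 kb. Rb1 was covered over 5.13 and 6.58 kb in untreated 1 and 3, 12.3 and 8.12 kb in RANKL, 10.9 and 6.69 kb in RANKL+I-BET and 8.93 kb in I-BET. The inhibitors Cdkn1c (p57) and Cdkn2b (p15) had 0 kb in all 7 lists, although RANKL 2 covered 13.2 kb at Cdkn1c, and Tfdp2, an E2F partner, had a mean of 0.053 kb. As deposited, RANKL 1 and 3 exceeded untreated 1 and 3 at 16 of 24 of these genes, and at one length at 4 of 23 (Cdk2, Cdc25a, Rb1 and E2f1), beside the 53% and 20.2% of all genes given above. Their median difference at one length was 0.33 for RANKL against untreated and -0.15 for RANKL+I-BET against RANKL.

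The genes whose coverage across the 7 lists at one length was most like that of Cdk6 were Ank3, Rbfox1 and Irgm1 (Pearson r = 0.97 each) and Cd59a and Rabac1 (0.96 each), out of 10939 genes compared. Only 7 genes exceeded 0.95. Rbfox1, for one, had 1.91 and 5.65 kb in untreated 1 and 3, 2.33 and 10.97 kb in RANKL, 3.05 and 5.06 kb in RANKL+I-BET and 5.51 kb in I-BET. It was high in RANKL 3 and low in both RANKL 1 and untreated 1, as Cdk6 was. The points share their 7 lists and these genes were picked as the extremes, so the values are descriptive. Among the other 8 genes, r with Cdk6 ran from -0.75 at Ccnd2 to 0.70 at Ccnd1.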

How the data were processed

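The submitters' processing notes name FastQC, Bowtie2 and MACS2 and the mm10 (GRCm38) build. Versions, settings and pairing with inputs are not given in the sources used here. Each of 10 deposited broad-peak lists gives a score (a whole number, 10 times the -log10 q), a fold enrichment (a ratio over background) and -log10 p and q per peak. These deposited values are the authors' own and served to rank or filter peaks inside 1 list or to describe them. The lists hold no counts, so no counting interval could be given, and no 2 lists were identical.

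Covered length was counted in each gene's span and 25 kb on either side and fitted with limma 3.58.1 (R 4.3.3, trended prior) as log2(bp + 500), lists numbered 1 and 3 cut by -log10 p to 16.1 Mb. Genes with a mean under 500 bp were left out, and p-values were adjusted by Benjamini-Hochberg (0.05). A peak is kept or dropped whole in this cut, so a broad domain can vanish at once. The scripts were tested on simulated data.

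The members and lists were chosen with earlier results of these data known. Named were all 9 genes, every region inside Cdk6, other G1/S genes past limma or with the 3 longest and 3 shortest coverages, the 5 genes most like Cdk6, and genes at a region given. Motif letters of AP-1, E2F, NF-kB, NFAT and STAT were also searched and are not discussed. Alternatives covered list length, libraries, ranking, thresholds, windows, pseudocounts, filter and replicate block.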

Additional observations from a re-analysis of the deposited data

How the results depend on the processing

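Genes called stayed at 0 in all 3 comparisons under each of 17 alternatives, with the smallest adjusted p at 0.0689 (limma, without RANKL replicate 1). The Cdk6 log2 difference of RANKL from untreated was 3.30 with peaks of -log10 q of at least 5, and from -0.12 (without RANKL 3) to 0.79 (without RANKL 1) when 1 library was left out. For RANKL+I-BET against RANKL these values were -1.75 and from -0.79 to 0.12, and for RANKL+I-BET against untreated 1.55 at the q threshold. Over the other 8 genes, 24 differences were recomputed 390 times: 80 moved by more than the residual SD, 63 changed sign and 2 of the 24 kept their sign throughout.

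Regions held only by RANKL against untreated numbered 4, but 2 with all 3 libraries of each group, 0 at -log10 q of at least 5, and 4 to 9 with 1 library left out (9 without untreated 3, 7 without RANKL 3). Those held only by untreated numbered 0, but 3 at one covered length, 1 at the q threshold, and 0 to 2 (1 without untreated 1, 2 without untreated 3). Those held only by RANKL against RANKL+I-BET numbered 3, but 0 at the q threshold, and 4 to 5 (5 without RANKL 3 or RANKL+I-BET 1), and the reverse 0, but 4 at one covered length, and 0 to 2 (2 without RANKL+I-BET 3). Those held only by RANKL+I-BET against untreated numbered 2, but 0 with all 3 libraries, 1 at the q threshold, and 2 to 7 (7 without untreated 3, 4 without RANKL+I-BET 3), and the reverse 1, but 0 with all 3 libraries, 2 at one covered length, 2 at the q threshold, 2 with 50% of the region covered, and 1 to 4 (4 without untreated 3, 2 without RANKL+I-BET 1). The cause of these shifts was not tested.

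The replicate block left 0 genes called and gave Cdk6 differences of 0.33, -0.33 and 0.00. The labels do not say that a number marks a shared day or batch, and the numbers were not taken to pair the samples, since 3 of 9 same-numbered correlations of deviations passed 0.1. All 9 were positive (0.0141 to 0.252), against 6 of 18 different-numbered ones (-0.172 to 0.052), and a library correlated best with its own number in 12 of 18 comparisons with another group. Deviations from a group's own mean offset one another, so the same-numbered and different-numbered values are not independent. Under each number, Cdk6 at one length was longer in RANKL than in untreated, 17.6 against 16.0 kb and 33.7 against 23.2 kb. RANKL+I-BET gave 17.5 and 21.2 kb, the first barely below RANKL. The untreated list with 16.0 kb was the one left uncut, and these within-number differences were not tested.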
